A study of Homo sapiens with 10 samples.

Results

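Genes for collagen chains, laminin chains and the proteins that link them in basement membranes were examined in RPTECs 7 days after 10 Gy of irradiation. RPTEC/TERT1 cells are human renal proximal tubular epithelial cells made immortal by telomerase, and a single line of 1 donor was used here. The members were taken by symbol from the protein-coding rows of the count table, and comprise every COL chain gene, every LAMA, LAMB and LAMC gene, NID1, NID2, HSPG2 and AGRN. That gave 60 of the 61587 genes listed. Of these 60, 42 had at least 200 counts over the 10 samples and entered the tests, among 19006 genes that did so. The irradiated group comprised 5 samples given gamma rays from a caesium source and the control group 5 mock-irradiated samples, all grown in the same medium and collected on day 7. Replicates 1 to 5 of each group share their number and were treated as pairs. The question was how the matrix genes that tubular cells transcribe differed between cells made senescent by irradiation and their controls.

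Basement membranes are thin sheets of matrix beneath epithelia, in which a laminin polymer and a collagen IV network are joined by nidogens and by the heparan sulphate proteoglycans perlecan and agrin. Each laminin is a trimer of an alpha, a beta and a gamma chain, and each collagen is a trimer of alpha chains. Fibrillar collagens build the interstitial fibres of scars, network collagens build sheets, and other collagens decorate fibrils, span membranes or anchor epithelia. In the kidney, the tubular basement membrane rests mainly on collagen IV of alpha 1 and alpha 2 chains and on laminins with the alpha 5 chain, and the alpha 3, alpha 4 and alpha 5 chains of collagen IV are known for Alport syndrome.

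Counts on genes summed to 78081911 to 131555873 in control and 66269311 to 101594948 in irradiated samples. Expression is given as CPM, the count scaled to a common library total after TMM normalisation. Ranks, shares and ratios of different genes use CPM per kb of exon of the annotation's canonical transcript, unless another length is named. Genes near the limit of detection are described by counts, and marker lists are summed in CPM. Differences were tested with edgeR's quasi-likelihood test across all 19006 genes with Benjamini-Hochberg adjustment, and a gene is called where its adjusted p-value was under 0.05. The cells expressed 12 of 13 markers of renal epithelium at 200 counts or more, summing to 3757 to 4171 CPM in control and 3829 to 5272 CPM in irradiated samples. LRP2, which encodes the endocytic receptor megalin of the proximal tubule, held 17 counts in all 10 samples together. As the data are bulk counts, fewer cells expressing a gene and less RNA per cell cannot be told apart.

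Of the 42 genes tested, 18 were higher and 15 lower after irradiation, and 9 were not called. Calls in either direction made up 46.6% of all genes tested, with 23.9% higher and 22.7% lower, against 78.6% of the members. A called change of more than 2-fold was found for 17 of the 42 members (40.5%), 8 of them higher and 9 lower, against 9.31% of all genes. With library size as the only scaling, 15 members were higher and 15 lower, and 38.0% of the calls among all genes were higher, against 51.4% in the main test. The median size of the log2 fold change, without its sign, was 0.74 among the members and 0.23 among all genes tested. In 23 members the irradiated and control samples did not overlap, where 26.7% of all genes showed this. COL13A1 and COL16A1 had fewer than 100 counts in the control group and reached 200 through the irradiated samples, so that a difference was built into their passing. Both are counted among the 18 higher members and the 8 higher by more than 2-fold.

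The counts by type were unequal (the plot of log2 fold changes by type). All 8 network collagens tested were lower, with a median log2 fold change of -0.57. Among 6 fibrillar collagens 1 was higher, 1 lower and 4 were not called (median -0.06), and among the 13 other collagens 7 were higher and 3 lower (median 0.35). The 7 include COL13A1 and COL16A1, which passed the limit of counts through the irradiated samples. Of 11 laminin chains 7 were higher and 2 lower (median 0.52), and of the 4 linking proteins 3 were higher and 1 lower (median 0.50). The median of all genes tested was -0.01. These counts describe the lists, and no test was made over a list.

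**Figure D1:**
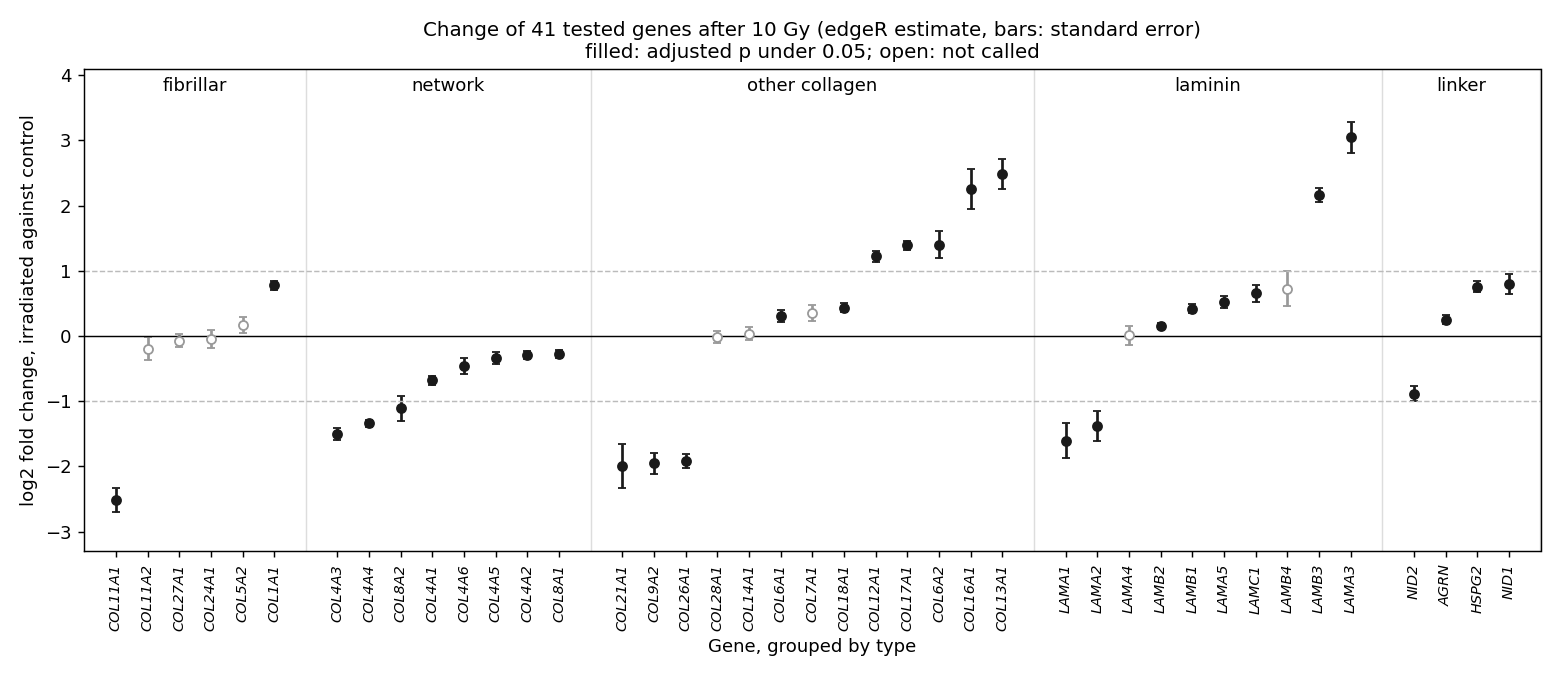
Fitted log2 fold change (irradiated against control, y axis) of 41 of the 42 tested genes, grouped by type along the x axis, with standard errors; filled points have an adjusted p-value under 0.05 and dashed lines mark 2-fold. All 8 network collagens lie below 0, and LAMA3 and LAMB3 lie above 2 among the laminins.

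LAMA3 (alpha 3) and LAMB3 (beta 3), chains of the epithelial laminin that holds cells to the basement membrane at hemidesmosomes, both rose more than 4-fold. LAMA3, on chromosome 18 of GRCh38 from 23689453 to 23956222, stood at 83.1, 199, 134, 165 and 130.3 CPM in control replicates 1 to 5 and 1035, 767, 1501, 1361 and 1109 CPM in irradiated replicates 1 to 5. Every irradiated sample lay above every control, and control replicate 1 was the lowest of all. The level rose from 142 ± 43 to 1155 ± 287 CPM (SD, n = 5 each), an 8.27-fold change (log2 fold change 3.05, SE 0.24, edgeR adjusted p = 6.99e-05).

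LAMB3, on chromosome 1 from 209614870 to 209652425, stood at 138, 165, 209.9, 193 and 153 CPM in control replicates 1 to 5 and 724, 526, 999.7, 922 and 726 CPM in irradiated replicates 1 to 5. Again no irradiated sample reached down to a control, and irradiated replicate 2 was the lowest of its group for both chains. LAMB3 rose from 172 ± 29.3 to 779 ± 186 CPM (SD, n = 5 each), or 4.48-fold (log2 fold change 2.16, SE 0.10, edgeR adjusted p = 1.56e-05).

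Promoter sequences are shown for LAMA3 and LAMB3 because AP-1, which the study examined, consists of JUN and FOS dimers that bind TGANTCA, and because they were the called members with a match. Of the 60 members, 44 matched RefSeq's table of start sites (GRCh38.p14), with 58 starts among them. The 250 bases before each start were searched for TGANTCA, which reads the same on both strands. It occurred in 3 of the 58 windows of members, those of LAMA3, LAMB3 and COL10A1. That share lies below the 6.57% of 35116 such windows of all genes. In LAMA3 the matches begin 125 and 69 bases before a start at position 23873020, which lies inside the annotated gene, and in LAMB3 the match begins 67 bases before the start at 209651374. Both windows are written 5′ to 3′ on the gene's strand, with matches in capitals. LAMA3 (chr18:23872770-23873019, plus strand) and LAMB3 (chr1:209651375-209651624, minus strand) read
LAMA3: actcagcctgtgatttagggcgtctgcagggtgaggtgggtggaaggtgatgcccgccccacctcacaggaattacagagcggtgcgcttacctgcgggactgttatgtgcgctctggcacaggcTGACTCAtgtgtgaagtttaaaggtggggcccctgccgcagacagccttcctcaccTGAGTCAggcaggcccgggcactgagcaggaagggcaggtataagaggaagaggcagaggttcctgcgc
LAMB3: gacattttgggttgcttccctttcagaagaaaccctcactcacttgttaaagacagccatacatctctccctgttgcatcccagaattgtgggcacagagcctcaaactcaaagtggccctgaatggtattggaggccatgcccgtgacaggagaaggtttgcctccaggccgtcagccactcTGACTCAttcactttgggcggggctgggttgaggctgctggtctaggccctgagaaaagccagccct
The other starts listed for LAMB3 held no match. A match describes these letters only. Binding of a factor was not measured here, and gene counts do not show which start was used.

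The broadly expressed laminin chains rose less. LAMA5, LAMB1 and LAMC1 encode the alpha 5, beta 1 and gamma 1 chains of the main laminin of adult epithelia. LAMB1 expression was 1083, 1322, 1133, 1209 and 1166 CPM in controls and 1595, 1618, 1716, 1517 and 1461 CPM in irradiated samples. All 5 irradiated samples exceeded all controls, with a rise from 1183 ± 90.6 to 1581 ± 97.8 CPM (SD, n = 5 each) (log2 fold change 0.42, SE 0.07, edgeR adjusted p = 0.00186). LAMA5 was at 1376, 1445, 1154, 1417 and 1142 CPM in controls and 1940.5, 1806, 2199, 1763 and 1674 CPM in irradiated samples, also without overlap, and its log2 fold change was 0.52 (SE 0.10, edgeR adjusted p = 0.0033). LAMC1 rose from 902 ± 167 to 1407 ± 180.3 CPM (SD, n = 5 each) (log2 fold change 0.65, SE 0.13, edgeR adjusted p = 0.00425). LAMB2, the beta 2 chain of the glomerular and muscle basement membranes, rose in all 5 pairs but its groups overlapped, from 520.4 ± 73.2 to 582 ± 107 CPM (SD, n = 5 each) (log2 fold change 0.15, SE 0.05, edgeR adjusted p = 0.0373), and the call was lost under 7 of 10 alternatives, among them no replicate block (adjusted p = 0.366).

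Laminin chains outside these trimers went other ways. LAMA1, the alpha 1 chain of early epithelial basement membranes, was at 28.1, 21.3, 32.5, 9.1 and 12.6 CPM in controls and 7.74, 13.3, 4.79, 3.72 and 4.58 CPM in irradiated samples. Irradiated replicate 2 exceeded control replicates 4 and 5, so the groups overlapped, although the irradiated sample was lower in all 5 pairs. LAMA1 fell from 20.7 ± 9.93 to 6.82 ± 3.91 CPM (SD, n = 5 each) (log2 fold change -1.60, SE 0.26, edgeR adjusted p = 0.00201). LAMA2, the alpha 2 chain known from muscle, fell without overlap, with 5.63, 4.85, 8.59, 4.24 and 4.03 CPM in controls and 2.12, 2.75, 1.57, 1.77 and 2.02 CPM in irradiated samples (log2 fold change -1.38, SE 0.22, edgeR adjusted p = 0.00186). LAMA4, the alpha 4 chain typical of vessels, stood at 349.9 ± 60.8 CPM in controls and 351 ± 53 CPM after irradiation (SD, n = 5 each, edgeR adjusted p = 0.962). LAMB4 lay between 0.122 and 0.518 CPM in every sample and was not called (edgeR adjusted p = 0.0529), and LAMC3, with 31 counts in all, was not tested. Of the exon bases of LAMA1, 11.1% lie under exons of the opposite strand, and reads there were not counted.

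**Figure D2:**
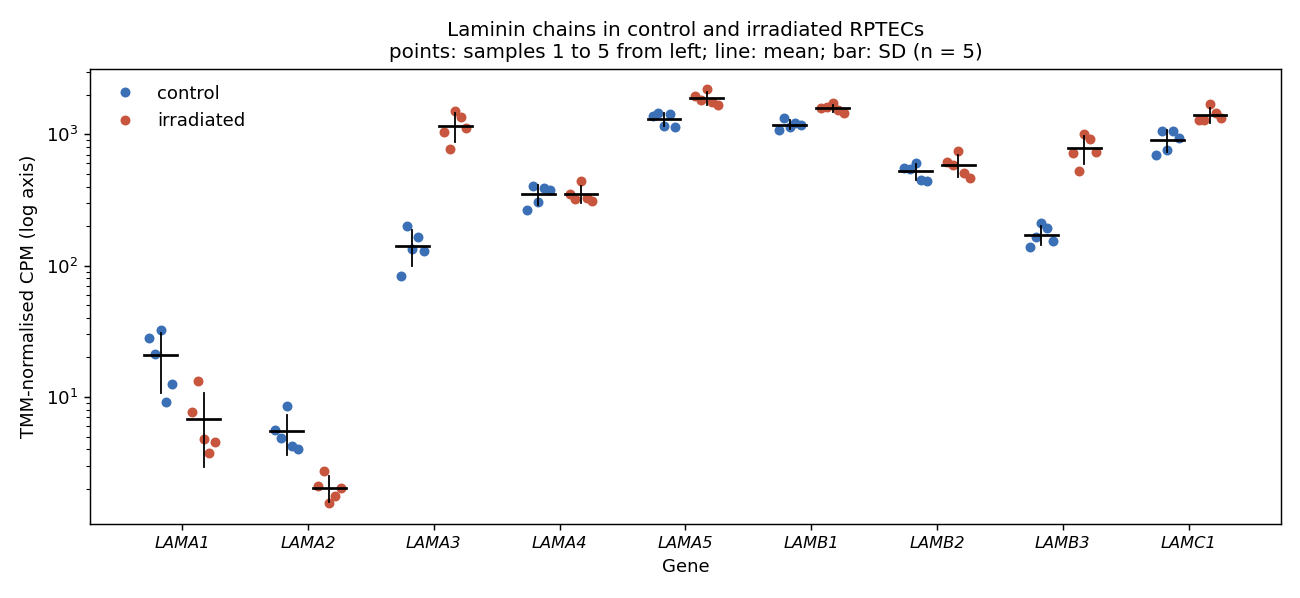
TMM-normalised CPM (log y axis) of 9 laminin chains (x axis) in 5 control and 5 irradiated samples; each point is a sample, the line is the mean and the bar the SD. LAMA3 and LAMB3 show wide gaps between the groups, LAMA4 overlaps fully, and LAMA1 and LAMA2 are lower after irradiation.

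The make-up of the alpha and beta chain classes shifted with these changes. By level per kb of exon, LAMA3 made up 7.38% ± 1.67 of all alpha-chain expression in controls and 33.4% ± 5.0 after irradiation (SD, n = 5 each), while LAMA5 went from 64.0% ± 4.4 to 51.3% ± 4.1. With these lengths LAMA5 remained the most abundant alpha chain in every sample. LAMB3 made up 12.4% ± 1.8 of beta-chain expression in controls and 33.4% ± 5.3 after irradiation. The summed level went from 178.9 ± 19.5 to 322.1 ± 45.5 CPM per kb for alpha chains and from 343.6 ± 21.8 to 576.4 ± 66.8 for beta chains. The shares depend on transcript length, which gene counts do not give. For LAMA3 the long transcript was used, so that its level per kb is too low if the short one prevails. The order of LAMA3 and LAMA5 after irradiation was not tested with the short one. With the union of all annotated exons as the length, LAMB3 made up 20.9% of beta chains in controls and 49.2% after irradiation.

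A ratio of 2 chains within a library does not depend on the scaling between libraries. The ratio of LAMA3 to LAMA5, per kb of exon, was 0.0648 to 0.147 in controls and 0.456 to 0.828 after irradiation. The ranges did not overlap, and the ratio increased in 5 of 5 pairs (exact permutation test of log2 ratios, two-sided, p = 0.00794, the smallest that 5 against 5 samples allow, and 0.00992 after Benjamini-Hochberg adjustment over 5 ratios). LAMB2 to LAMB1 stood at 0.434 in controls and 0.361 in irradiated samples (geometric means). With the union of exons as the length, LAMB2 lay above LAMB1 in controls, at 75.8 against 63.6 CPM per kb. The order of these 2 chains thus depends on the length used. The irradiated library had the lower ratio in 5 of 5 pairs, but the ranges overlapped (exact permutation p = 0.103, 0.103 adjusted).

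**Figure D3:**
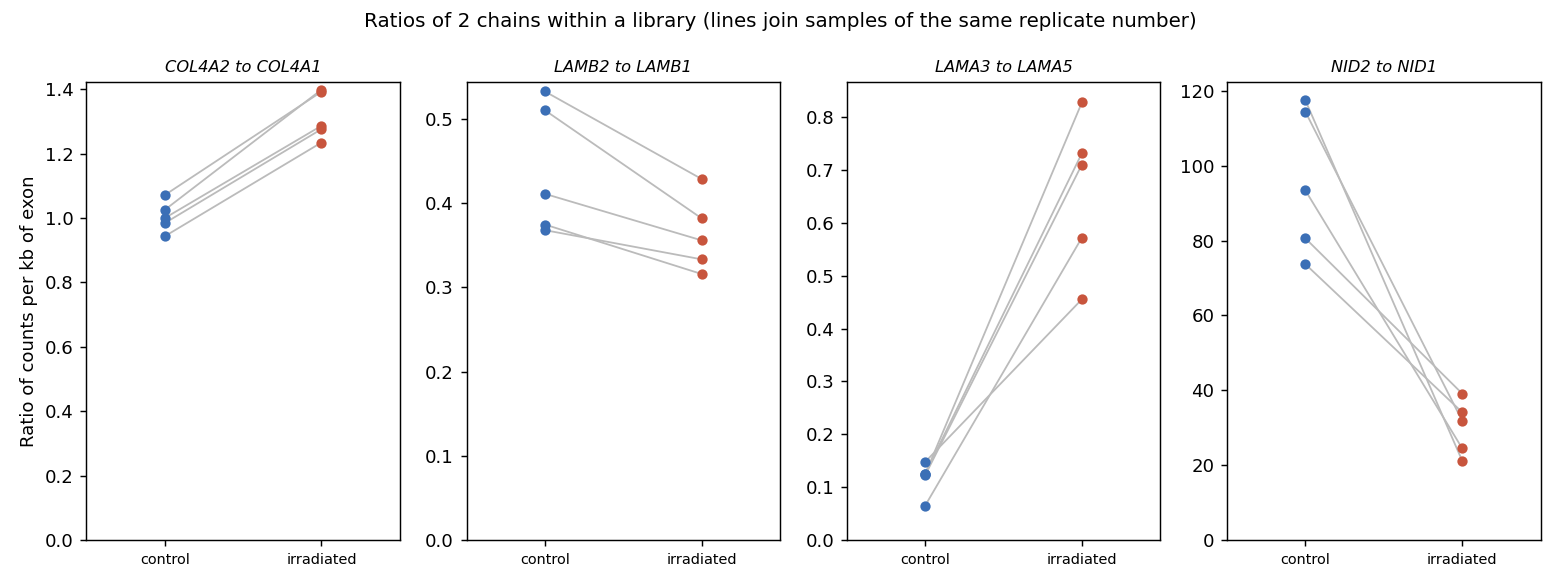
Ratio of counts per kb of exon (y axis, starting at 0) of 4 pairs of chains in control and irradiated libraries; each point is a library and lines join the same replicate number. LAMA3 to LAMA5 and COL4A2 to COL4A1 are higher in all irradiated libraries, NID2 to NID1 is lower in all, and LAMB2 to LAMB1 overlaps between groups.

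All 6 alpha chain genes of collagen IV were lower after irradiation. COL4A1 and COL4A2 encode the chains of the network found in every basement membrane, and stood at 393 and 393 CPM per kb in controls, above all other collagens. With the union of exons as the length, COL18A1 at 181.9 CPM per kb lay above COL4A1 at 175.5 and COL4A2 at 131.6. COL4A1, on chromosome 13 from 110148963 to 110307157, stood at 2865, 1888, 2668, 2704 and 2743 CPM in control replicates 1 to 5 and 1751, 1295, 1397, 1806 and 1769.8 CPM in irradiated replicates 1 to 5. Control replicate 2 lay far below the other controls but above all irradiated samples. COL4A1 fell from 2573 ± 390.5 to 1604 ± 239 CPM (SD, n = 5 each) (log2 fold change -0.68, SE 0.07, edgeR adjusted p = 0.00027).

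COL4A2, on chromosome 13 from 110305812 to 110513209, stood at 2663, 1993, 2696, 2664 and 2661 CPM in control replicates 1 to 5 and 2131, 1777, 1926, 2290.4 and 2226 CPM in irradiated replicates 1 to 5. Control replicate 2 was again the lowest control, and 3 irradiated samples lay above it. Within pairs the irradiated sample was lower 5 of 5 times, and COL4A2 fell from 2535 ± 304 to 2070.2 ± 214 CPM (SD, n = 5 each) (log2 fold change -0.29, SE 0.07, edgeR adjusted p = 0.00907). This call was not made without the replicate block (adjusted p = 0.0517). COL4A2 fell less than COL4A1. The COL4A2 to COL4A1 ratio per kb was 0.943 to 1.07 in controls and 1.23 to 1.40 in irradiated samples, higher in 5 of 5 pairs (exact permutation test, two-sided, p = 0.00794, 0.00992 adjusted over 5 ratios).

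These paired genes lie head to head and share the sequence between their starts, which is shown because the ratio of their levels differed between the groups. RefSeq places the starts 126 bases apart on GRCh38.p14. The stretch is chr13:110307158-110307283, written on the plus strand, toward COL4A2. CCAAT, searched on both strands, is in capitals, and occurs in the 250 bases before a start in 32% of all 35116 windows, and in 16 of the 58 windows of members.
COL4A1-COL4A2: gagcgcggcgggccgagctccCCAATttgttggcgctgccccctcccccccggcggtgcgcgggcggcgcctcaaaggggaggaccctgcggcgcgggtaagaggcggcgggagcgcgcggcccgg
The other chains are paired in the same way on chromosomes 2 and X, with 418 bases between the RefSeq starts of COL4A4 and COL4A3 and 379 bases between the nearest starts of COL4A6 and COL4A5.

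The alpha 3 and alpha 4 chains, which join alpha 5 in the mature network of the glomerulus and distal tubule, showed the largest falls of collagen IV. COL4A3, on chromosome 2 from 227164624 to 227314792, stood at 181, 157, 104, 102 and 113 CPM in control replicates 1 to 5 and 73.5, 64, 39.2, 29.3 and 34.1 CPM in irradiated replicates 1 to 5. Replicates 1 and 2 were the highest of both groups, and the groups did not overlap. COL4A3 fell from 131 ± 35.7 to 48 ± 19.5 CPM (SD, n = 5 each) (log2 fold change -1.50, SE 0.09, edgeR adjusted p = 2.81e-05). COL4A4, on chromosome 2 from 227002714 to 227164453, stood at 364, 342, 267, 250.2 and 293 CPM in control replicates 1 to 5 and 146, 157, 103, 94.1 and 106 CPM in irradiated replicates 1 to 5. It too was highest in replicates 1 and 2 of each group, and fell from 303 ± 48.4 to 121 ± 28.3 CPM (SD, n = 5 each) (log2 fold change -1.34, SE 0.06, edgeR adjusted p = 1.08e-05). Podocytes, the glomerular cells that make these chains, were looked for by 5 markers, which summed to 17.7 to 40.5 CPM in controls and 23.9 to 34.0 CPM in irradiated samples. Nearly all of this came from SYNPO (from 18.9 ± 8.85 to 17.9 ± 2.75 CPM (SD, n = 5 each), edgeR adjusted p = 0.885) and PODXL (from 9.05 ± 1.77 to 13.2 ± 1.76 CPM (SD, n = 5 each), log2 fold change 0.56, SE 0.10, edgeR adjusted p = 0.00267), and NPHS1, which encodes nephrin, held 8 counts in all. Their part in these values was not tested.

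COL4A5 and COL4A6, on the X chromosome, fell less. COL4A5 encodes the alpha 5 chain and went from 130.4 ± 16.5 to 103 ± 12.9 CPM (SD, n = 5 each) (log2 fold change -0.34, SE 0.09, edgeR adjusted p = 0.0182), lower in 5 of 5 pairs with overlapping groups. COL4A6, the alpha 6 chain, went from 6.34 ± 0.938 to 4.64 ± 0.969 CPM (SD, n = 5 each) (log2 fold change -0.46, SE 0.12, edgeR adjusted p = 0.0177) and was lower in 4 of 5 pairs. Leaving out replicate 1 ended both calls (adjusted p = 0.0705 and 0.0671), and leaving out replicate 4 or 5 ended that of COL4A6 (0.0501 and 0.0638). By level per kb, the alpha 1 and alpha 2 chains made up 45.9% ± 1.7 and 46.1% ± 1.1 of collagen IV in controls, and 40.7% ± 1.7 and 53.5% ± 1.2 after irradiation (SD, n = 5 each). COL4A3 made up 1.96% ± 0.67 and COL4A4 3.62% ± 0.92 in controls, and 1.02% ± 0.45 and 2.06% ± 0.63 after irradiation. With the union of all annotated exons as the length, COL4A1 went from 49.2% to 45.4% and COL4A2 from 37.0% to 44.7%, so that the order of both after irradiation depends on the length used. On that length COL4A3 went from 3.06% to 1.66% and COL4A4 from 7.34% to 4.34%. With canonical lengths, the sum of the 6 chains went from 854.5 ± 103.8 to 601.0 ± 65.7 CPM per kb.

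Of the other network collagens, COL8A1 and COL8A2 encode the chains of collagen VIII, a lattice of vessels and of the cornea. COL8A1 was at 283, 349, 313, 356 and 342 CPM in controls and 269, 294, 256, 265 and 270.3 CPM in irradiated samples. Irradiated replicate 2 exceeded control replicate 1, and within pairs the irradiated sample was lower 5 of 5 times (log2 fold change -0.28, SE 0.06, edgeR adjusted p = 0.0059). COL8A2 was a minor transcript at 1.72, 2.73, 3.89, 2.27 and 2.42 CPM in controls and 1.04, 1.87, 1.11, 0.838 and 1.16 CPM in irradiated samples, lower in all pairs with overlapping groups (log2 fold change -1.11, SE 0.19, edgeR adjusted p = 0.00233). COL10A1, of hypertrophic cartilage, held 87 counts in all and was not tested.

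**Figure D4:**
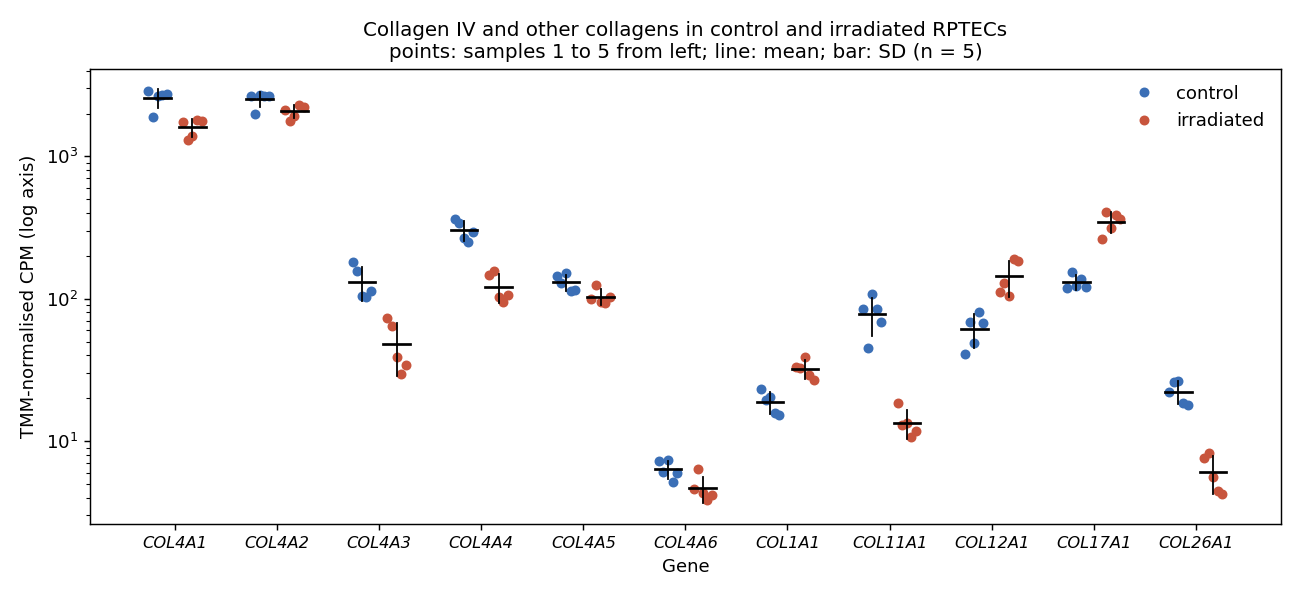
TMM-normalised CPM (log y axis) of the 6 collagen IV chains and of 5 further collagens (x axis) in 5 control and 5 irradiated samples; each point is a sample, the line is the mean and the bar the SD. COL4A3, COL4A4, COL11A1 and COL26A1 are lower in all irradiated samples, and COL1A1, COL12A1 and COL17A1 are higher in all of them.

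Fibrillar collagens were present in part only. COL27A1, a cartilage-associated fibrillar collagen, was the most abundant of them at 23.5 CPM per kb in controls, and was not called. Its values were 295, 199, 158, 144 and 122 CPM in controls and 212, 231, 136, 138 and 138 CPM in irradiated samples (log2 fold change -0.07, SE 0.10, edgeR adjusted p = 0.568). The groups overlapped, and replicates 1 and 2 were the highest of both. COL11A1, a minor chain that sets fibril diameter, had the largest fall of all members. It was at 84.5, 45.1, 109, 84.4 and 68.7 CPM in control replicates 1 to 5 and 18.6, 12.9, 13.4, 10.6 and 11.7 CPM in irradiated replicates 1 to 5. The lowest control was more than 2-fold above the highest irradiated sample, and COL11A1 fell from 78.3 ± 23.4 to 13.4 ± 3.06 CPM (SD, n = 5 each) (log2 fold change -2.51, SE 0.18, edgeR adjusted p = 5.54e-05).

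COL1A1, the alpha 1 chain of collagen I and the main collagen of scars, was at 23.2, 19.5, 20.5, 15.8 and 15.2 CPM in controls and 33.2, 32.5, 39.1, 29.1 and 26.8 CPM in irradiated samples. All irradiated samples exceeded all controls, with a rise from 18.8 ± 3.34 to 32.2 ± 4.67 CPM (SD, n = 5 each), or 1.71-fold (log2 fold change 0.78, SE 0.07, edgeR adjusted p = 0.000108). Its partner chain COL1A2 held 23 counts over all 10 samples, against 24330 for COL1A1, and COL3A1, the other main fibrillar collagen of fibroblasts, held 4. COL5A1 held 24 counts while COL5A2, a chain of the same collagen V, held 1504. COL5A2, COL11A2 and COL24A1, at mean levels of 1.33 to 1.72 CPM in each group, were not called (edgeR adjusted p = 0.315, 0.387 and 0.806). COL2A1 and COL5A3 held 50 and 13 counts and were not tested.

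Markers of fibroblasts were looked at beside COL1A1. Of 10 markers, PDGFRA, PDGFRB, LUM, FAP, POSTN, THY1, TWIST1 and PRRX1 stayed under 200 counts, with 103 counts at most. DCN and ACTA2, a small proteoglycan and smooth muscle actin, passed that limit and were higher after irradiation (DCN from 0.315 ± 0.195 to 1.75 ± 1.59 CPM (SD, n = 5 each), ACTA2 from 3.99 ± 0.368 to 5.47 ± 1.77 CPM (SD, n = 5 each)). The 10 markers summed to 4.04 to 5.25 CPM in controls and 5.18 to 13.3 CPM in irradiated samples. Irradiated replicate 2 set the upper end of that range, and the other 4 irradiated samples summed to 5.18 to 7.00 CPM. It held 4.45 CPM of DCN against 0.454 to 1.61 in the others, and 8.59 CPM of ACTA2 against 4.36 to 5.22. Without it the irradiated means were 1.08 ± 0.567 CPM for DCN and 4.70 ± 0.382 CPM for ACTA2 (SD, n = 4), and with replicate 2 of each group left out both were still called (edgeR adjusted p = 0.000397 and 0.0313). LUM and POSTN held 2 counts each. The part of fibroblasts in the COL1A1 value was not tested.

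Collagens of other types both rose and fell. COL18A1, a heparan sulphate bearing collagen of basement membranes and the source of endostatin, was the most abundant of them at 285 CPM per kb in controls and was at 1754, 1551, 1575, 1424 and 1392 CPM in controls and 2048, 2103, 2204, 2049 and 1972 CPM in irradiated samples. The groups did not overlap, and COL18A1 rose from 1539 ± 143 to 2075 ± 85.9 CPM (SD, n = 5 each) (log2 fold change 0.43, SE 0.06, edgeR adjusted p = 0.00125), with 18.5% of its exon bases under exons of the opposite strand. COL17A1, the transmembrane collagen of hemidesmosomes that binds the laminin of LAMA3 and LAMB3, was at 119, 155, 123, 138 and 119.9 CPM in control replicates 1 to 5 and 263, 406, 311, 386 and 365 CPM in irradiated replicates 1 to 5. Its lowest irradiated sample was well above its highest control, and it rose from 131 ± 15.5 to 346 ± 58.3 CPM (SD, n = 5 each) (log2 fold change 1.39, SE 0.07, edgeR adjusted p = 1.59e-05). COL7A1, whose product anchors that laminin to the stroma, was at 241, 174, 165, 185 and 106 CPM in controls and 232, 281, 163, 245 and 177 CPM in irradiated samples. The groups overlapped, 3 of 5 pairs were higher, and COL7A1 was not called (log2 fold change 0.35, SE 0.13, edgeR adjusted p = 0.0551), but was called by DESeq2 (0.015).

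COL12A1, which coats collagen I fibrils, was at 40.9, 68.8, 48.8, 80.9 and 67.2 CPM in controls and 111, 129, 104, 189.9 and 183 CPM in irradiated samples. It rose without overlap, from 61.3 ± 16.2 to 143 ± 40.4 CPM (SD, n = 5 each) (log2 fold change 1.22, SE 0.08, edgeR adjusted p = 4.47e-05), and replicates 4 and 5 were the highest irradiated samples. COL6A1 and COL6A2, chains of the beaded filaments of collagen VI, were both higher, but at unlike levels. COL6A1 rose from 21.7 ± 4.63 to 26.8 ± 5.67 CPM (SD, n = 5 each) (log2 fold change 0.31, SE 0.09, edgeR adjusted p = 0.0223), a call not made without the block, with library size only, or without replicate 2, 4 or 5. COL6A2 was at 0.269, 0.529, 0.409, 0.204 and 0.269 CPM in controls and 0.898, 1.43, 0.594, 0.523 and 1.04 CPM in irradiated samples, higher in 5 of 5 pairs with overlapping groups (log2 fold change 1.40, SE 0.21, edgeR adjusted p = 0.00125). COL6A3, the third chain, held 92 counts. COL16A1 and COL13A1, a fibril-associated and a transmembrane collagen, were near the limit of detection and higher after irradiation. COL16A1 was at 0.0979, 0.258, 0.279, 0.121 and 0.0672 CPM in controls and 0.828, 0.762, 0.777, 0.686 and 0.769 CPM in irradiated samples (log2 fold change 2.26, SE 0.30, edgeR adjusted p = 0.000787). COL13A1 was at 0.0612, 0.0787, 0.0498, 0.065 and 0.118 CPM in controls and 0.545, 0.299, 0.454, 0.316 and 0.565 CPM in irradiated samples (log2 fold change 2.49, SE 0.23, edgeR adjusted p = 0.000159), with 42 counts in all controls together. In neither did the groups overlap, but both entered the test through their irradiated samples, so a difference was built in.

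The falls among other collagens were those of COL26A1, COL21A1 and COL9A2. COL26A1, a little-studied collagen first described in testis and ovary, was at 22.1, 26.2, 26.5, 18.4 and 17.9 CPM in control replicates 1 to 5 and 7.58, 8.18, 5.62, 4.47 and 4.23 CPM in irradiated replicates 1 to 5. The groups were well apart, and it fell from 22.2 ± 4.1 to 6.02 ± 1.79 CPM (SD, n = 5 each) (log2 fold change -1.91, SE 0.11, edgeR adjusted p = 2.81e-05). COL21A1, a fibril-associated collagen, was at 3.08, 1.54, 2.09, 2.53 and 1.65 CPM in controls and 0.424, 1.05, 0.389, 0.359 and 0.588 CPM in irradiated samples (log2 fold change -1.996, SE 0.34, edgeR adjusted p = 0.00242). COL9A2, a chain of cartilage collagen IX, was at 1.08, 1.98, 0.618, 0.641 and 0.58 CPM in controls and 0.202, 0.508, 0.216, 0.152 and 0.17 CPM in irradiated samples (log2 fold change -1.95, SE 0.16, edgeR adjusted p = 8.58e-05). In both, irradiated replicate 2 was the highest of its group and still below every control. COL14A1 and COL28A1, at 11.6 and 5.81 CPM after irradiation, were not called (edgeR adjusted p = 0.818 and 0.907).

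The 18 members under the limit of 200 counts had between 4 and 129 counts over the 10 samples. Besides those named above they were COL9A3 (129 counts), COL25A1 (98), COL6A5 (97), COL6A6 (81), COL22A1 (64), COL23A1 (36), COL9A1 (18), COL20A1 (13), COL19A1 (10) and COL15A1 (7). At these counts a difference was not detectable in the main test, since they were left out of it.

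The proteins that link laminin to collagen IV changed in unequal ways. AGRN, which encodes the proteoglycan agrin, had the highest level of all members, 526 CPM per kb in controls. It was at 4339, 3824, 3975, 3601 and 3531 CPM in controls and 4773, 4274, 4720.2, 4595 and 4467 CPM in irradiated samples. The groups overlapped, the irradiated sample was higher in 5 of 5 pairs, and the rise was small (log2 fold change 0.25, SE 0.07, edgeR adjusted p = 0.0184). It was not called with library size as the only scaling (0.0663) or without replicate 4 or 5 (0.0792 and 0.0618). HSPG2, encoding perlecan, was at 1788, 1426, 1864, 1410.2 and 1231 CPM in controls and 2779, 1999, 3106, 2615 and 2511 CPM in irradiated samples. It rose without overlap, from 1544 ± 269.9 to 2602 ± 405 CPM (SD, n = 5 each) (log2 fold change 0.76, SE 0.09, edgeR adjusted p = 0.000369), with 11.7% of its exon bases under exons of the opposite strand.

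NID2 and NID1 encode the nidogens, which bridge laminin gamma 1 and collagen IV. NID2, the main nidogen of these cells, was at 40.2, 44.6, 48.9, 51.8 and 49 CPM in controls and 26.9, 31, 25.8, 21.3 and 22.6 CPM in irradiated samples. Every irradiated sample lay below every control, and NID2 fell from 46.9 ± 4.55 to 25.5 ± 3.81 CPM (SD, n = 5 each) (log2 fold change -0.89, SE 0.11, edgeR adjusted p = 0.000647). NID1 was at 0.648, 0.658, 0.508, 0.659 and 0.496 CPM in controls and 0.939, 0.941, 0.961, 1.03 and 1.27 CPM in irradiated samples, with a rise and no overlap (log2 fold change 0.79, SE 0.15, edgeR adjusted p = 0.00421). The NID2 to NID1 ratio per kb was 73.7 to 117.5 in controls and 21.2 to 39.1 in irradiated samples, lower in 5 of 5 pairs (exact permutation test, two-sided, p = 0.00794, 0.00992 adjusted over 5 ratios). Of the exon bases of NID2, 30.7% are shared with opposite-strand exons, and reads there were not counted.

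Collagen chains are hydroxylated, folded, trimmed and crosslinked by a set of enzymes and chaperones, and 30 of 34 such genes were tested. Of these 12 were higher and 10 lower (73.3% called, against 46.6% of all genes), with a median log2 fold change of -0.02. The largest rises were those of proteases. ADAMTS14, which trims the amino end of fibrillar procollagens, rose from 0.625 ± 0.409 to 6.22 ± 2.88 CPM (SD, n = 5 each) (log2 fold change 3.38, SE 0.16, edgeR adjusted p = 1.56e-05). TLL1, a protease of the BMP1 family that trims procollagens and laminin chains, rose from 1.02 ± 0.523 to 8.81 ± 3.61 CPM (SD, n = 5 each) (log2 fold change 3.17, SE 0.19, edgeR adjusted p = 3.16e-05), and its relative TLL2 went from 29.6 ± 9.95 to 123 ± 21.3 CPM (SD, n = 5 each) (log2 fold change 2.09, SE 0.19, edgeR adjusted p = 0.000148). The largest falls were those of P3H2, a prolyl 3-hydroxylase that acts on collagen IV (from 262 ± 35.5 to 161 ± 15.3 CPM (SD, n = 5 each), log2 fold change -0.70, SE 0.10, edgeR adjusted p = 0.00122), of PCOLCE, an enhancer of procollagen trimming (from 10.4 ± 2.29 to 6.44 ± 1.31 CPM (SD, n = 5 each), log2 fold change -0.69, SE 0.12, edgeR adjusted p = 0.00304), and of PLOD2, a lysyl hydroxylase (from 179 ± 16.1 to 112 ± 8.31 CPM (SD, n = 5 each), log2 fold change -0.68, SE 0.09, edgeR adjusted p = 0.000573).

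Of 18 genes for collagen and laminin receptors, 16 were tested, with 7 higher and 5 lower (75% called, against 46.6% of all genes). ITGA6 and ITGA3 encode the integrin alpha subunits that bind the LAMA3-containing laminin, and went up, ITGA6 from 54.9 ± 14.9 to 128 ± 14.5 CPM (SD, n = 5 each) (log2 fold change 1.26, SE 0.18, edgeR adjusted p = 0.000954) and ITGA3 from 1639.6 ± 222 to 3726 ± 421 CPM (SD, n = 5 each) (log2 fold change 1.19, SE 0.11, edgeR adjusted p = 0.000162). ITGB4, the beta subunit that pairs with ITGA6 at hemidesmosomes and is named here after its values were seen, fell from 1099 ± 299 to 812 ± 92.7 CPM (SD, n = 5 each) (log2 fold change -0.40, SE 0.11, edgeR adjusted p = 0.0174). ITGB1, the other integrin beta subunit listed, was also named after its values were seen. It rose from 1269 ± 145 to 2072 ± 237 CPM (SD, n = 5 each) (log2 fold change 0.71, SE 0.07, edgeR adjusted p = 0.000233). ITGA2, of a collagen-binding integrin, rose from 66.6 ± 25.7 to 116 ± 5.3 CPM (SD, n = 5 each) (log2 fold change 0.89, SE 0.20, edgeR adjusted p = 0.00894). BCAM, a receptor for the laminin alpha 5 chain, fell from 1123 ± 214 to 379.7 ± 135 CPM (SD, n = 5 each) (log2 fold change -1.61, SE 0.19, edgeR adjusted p = 0.000489). MRC2, which takes up collagen for degradation, fell from 186 ± 21.7 to 91.7 ± 21.3 CPM (SD, n = 5 each) (log2 fold change -1.04, SE 0.10, edgeR adjusted p = 0.000191), and ITGA7, a laminin-binding subunit known from muscle, fell from 1.25 ± 0.406 to 0.861 ± 0.301 CPM (SD, n = 5 each) (log2 fold change -0.55, SE 0.11, edgeR adjusted p = 0.00449).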

How the data were processed

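RNA-seq counts of 10 samples were analysed. The authors trimmed adapters (Cutadapt 2.8), aligned reads to GRCh38 with STAR 2.7.9a and took its gene counts; the deposited table holds raw whole counts, neither normalised nor filtered. The annotation release is not given in the sources used here. Identifiers were matched to GENCODE release 44 of GRCh38 (61369 of 61587), which gave symbols, coordinates and canonical exon lengths. All 17 protein-coding genes whose exon bases lie wholly under opposite-strand exons had 0 counts, against 10.7% of 12742 without such overlap, so counts were treated as unstranded. The labels and the methods name different library kits.

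Samples were grouped by title. Genes with at least 200 counts were fitted in R 4.3.3 with edgeR 4.0.16 (TMM, glmQLFit, glmQLFTest) with replicate number as a block, as in the study's model, and adjusted p-values (Benjamini-Hochberg) were set against 0.05. SE is the log2 fold change over the square root of F. Deviations of same-numbered samples from their group means correlated across genes at r = 0.22 to 0.51, against -0.35 to 0.32 between different numbers. Replicate 2, at 0.22, lay inside the latter range, so its pairing is not borne out by these values. The numbers were taken as pairs. The labels do not say whether replicates were separate cultures, so p-values measure the spread between these samples. Ratios were tested with scipy 1.17.1. Alternatives were DESeq2 1.42.0, RLE size factors, library size only, a minimum of 1 count, no block, and each pair left out. The fit was tested on simulated data. The members, types and lists were chosen with earlier results of these data known. Named genes are all tested laminins, linking proteins and collagen IV chains, other collagens changed over 2-fold or among the 3 most abundant of their type, and the 3 largest rises and falls called in each pathway list. Most remaining members were named to account for them. Some items, among them 1 member and 1 of the 5 ratios, are counted in the totals but not reported here. Level ranks use exon length, with the union of exons, and the fibroblast markers without replicate 2, added as alternatives after the data were seen. Figures were drawn with matplotlib 3.10.9.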

Additional observations from a re-analysis of the deposited data

Results flagged for a closer look

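Samples that stood apart from the rest of their group by Dixon's criterion for 5 samples were sought among 36 named members in both groups. Of 72 sets of 5 values, 5 had such a sample, against 3.6 by chance, and values from 1 library are not independent. Control replicate 2 was low for COL4A1, at 1888 CPM while its fellow controls held 2668 to 2865, and for COL4A2, at 1993 against 2661 to 2696 CPM. Irradiated replicate 2 was high for COL4A5, at 126 CPM against 93.7 to 102.7 in the others, for COL4A6, at 6.32 against 3.87 to 4.57 CPM, and for COL9A2, at 0.508 against 0.152 to 0.216 CPM. All 5 values come from samples of replicate number 2, and its irradiated library had the fewest counts of the series (66269311). COL4A1, COL4A2, COL4A5, COL4A6 and COL9A2 were all still called lower without replicate 2.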

How the results depend on the processing

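Of the 33 calls among members, 33 kept their direction and threshold with RLE size factors and with DESeq2, 32 with a minimum of 1 count, 30 with library size only, 30 without the replicate block (16 higher, 14 lower), and 28 to 32 without a replicate. Without one of replicates 1, 3 or 5, COL13A1 was not tested, since it held fewer than 200 counts. With a minimum of 1 count, 9497 of all genes were called, against 8857 in the main test. In that setting 11 of the other collagens were called higher in place of 7. The added calls were COL22A1, COL6A3 and COL6A5, which the main test left out, and COL7A1. The main test had included COL7A1 without calling it (edgeR adjusted p = 0.0551, and 0.0106 with a minimum of 1 count). Of 36 named members, 27 kept their direction and their side of the threshold under every alternative in which they were tested. COL13A1 is counted among the 27. AGRN, COL4A2, COL4A5, COL4A6 and LAMB2 lost their call under at least 1 alternative, as did COL6A1, which is not among the 36. COL7A1 and LAMB4 gained a call under at least 1 alternative, with log2 fold changes between 0.26 and 0.46 for COL7A1. LAMA4 and COL27A1, which were not called, changed sign. The log2 fold change of LAMA4 was -0.067 with library size only and -0.026 with a minimum of 1 count, and ran from -0.11 to 0.11 with a replicate left out. That of COL27A1 ran from -0.14 to 0.027 with a replicate left out. Within pairs the mean difference of the log2 ratios equals that between groups by arithmetic (0.39 for COL4A2 to COL4A1, 2.52 for LAMA3 to LAMA5). It is therefore no separate check. In a paired permutation test 5 pairs cannot reach a p under 0.0625. The called ratios named in the text stayed called without any 1 replicate (adjusted p = 0.0357 each, exact permutation test). As their groups did not overlap, leaving out a pair could only return the smallest p of that test. This restates the lack of overlap. Library size only moved the median of all genes to -0.09. Of genes near 200 counts, differences are limited by depth.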

Other observations

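Of 23 further genes of basement membrane proteins, 16 were tested, with 7 higher and 6 lower after irradiation, where 23.9% of all genes tested were higher and 22.7% lower. NTN1, which encodes the laminin-related guidance protein netrin 1, rose from 0.517 ± 0.142 to 3.33 ± 1.48 CPM (SD, n = 5 each) (log2 fold change 2.63, SE 0.22, edgeR adjusted p = 9.97e-05). PAPLN, a protease-inhibitor-like protein of basement membranes, rose from 5.84 ± 0.579 to 18.7 ± 1.6 CPM (SD, n = 5 each) (log2 fold change 1.68, SE 0.09, edgeR adjusted p = 2.17e-05), and MATN2, an adaptor of matrix filaments, rose from 6.31 ± 1.66 to 19.8 ± 3.56 CPM (SD, n = 5 each) (log2 fold change 1.66, SE 0.21, edgeR adjusted p = 0.000604). HMCN1, a very large protein of epithelial junctions with the matrix, fell from 69.2 ± 30.9 to 15.2 ± 9.36 CPM (SD, n = 5 each) (log2 fold change -2.26, SE 0.09, edgeR adjusted p = 8.62e-06). VWA1, a perlecan-binding protein, fell from 18.6 ± 4.43 to 7.4 ± 1.66 CPM (SD, n = 5 each) (log2 fold change -1.33, SE 0.15, edgeR adjusted p = 0.000333), and FBLN2, which binds laminin and nidogen, fell from 0.343 ± 0.134 to 0.15 ± 0.0534 CPM (SD, n = 5 each) (log2 fold change -1.17, SE 0.31, edgeR adjusted p = 0.0161). FBLN2 held 177 counts in controls and 66 in irradiated samples, and so reached 200 through the controls.

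Of the 18 collagen and laminin genes under 200 counts, 3 were called when every gene of at least 1 count was kept, all of them higher. In that setting 9497 of all genes were called, 47.6% of them higher. The share of calls among all genes of so few counts was not worked out. COL22A1 held 5 counts in all controls and 59 in all irradiated samples (edgeR adjusted p = 1.95e-05). COL6A5 held 16 and 81 counts (edgeR adjusted p = 2.68e-05), and COL6A3 held 33 and 59 (edgeR adjusted p = 0.0354).

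Markers of other cells were low in all samples. Of 6 endothelial markers, KDR, TEK and ERG stayed under 200 counts, and the list summed to 1.32 to 2.45 CPM in control and 4.20 to 6.09 CPM in irradiated samples. CDH5, an endothelial cadherin, made most of this difference, with a rise from 0.596 ± 0.248 to 3.31 ± 0.943 CPM (SD, n = 5 each) (log2 fold change 2.48, SE 0.26, edgeR adjusted p = 0.000255). Of 5 leukocyte markers, CD68, CD3E and MS4A1 stayed under 200 counts, and the list summed to 0.487 to 0.734 and 0.784 to 1.24 CPM. The 5 podocyte markers summed to 17.7 to 40.5 CPM in control and 23.9 to 34.0 CPM in irradiated samples, nearly all from SYNPO and PODXL. The part of these cells in the values of collagens and laminins was not tested.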
